A study of Mus musculus with 33 samples.

Results

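The genes described here are 37 chaperone genes of colon regulatory T cells (Treg): the HSP90 and HSP70 chaperones, their J-domain and BAG partners, the HSP90 co-chaperones, the mitochondrial chaperonin pair and the 8 measured subunits of the cytosolic CCT chaperonin. They were chosen by gene symbol, with earlier results of these data known, and all 37 were found among the 53465 genes of the count table. They fall into 3 HSP90 paralogs, 9 HSP90 co-chaperones, 2 stress-inducible HSP70 genes, 3 constitutive HSP70 and HSP110 genes, 5 J-domain proteins, 3 BAG and HSF1 genes, 1 HSP70 of the endoplasmic reticulum (ER), 3 mitochondrial chaperones and 8 CCT subunits.

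The series is about 2 cytokines of barrier tissues, TSLP and IL-33, in Treg during the progression of colorectal cancer; TSLPR is the receptor of the first and ST2 of the second. RNA of 200 sorted cells per library was sequenced from 8 mice that carried a Foxp3-yfp reporter on the B6 background, in which the Foxp3 locus marks Treg. The 4 cancer mice (mice 5 to 8) had colitis-associated cancer: an intraperitoneal dose of azoxymethane (AOM, 10 mg/kg), a carcinogen, then 3 cycles of dextran sodium sulfate (DSS), which injures the colon epithelium, given in the water for 7 days per cycle. These mice were killed 2 weeks after DSS ended. The 4 naive mice (mice 1 to 4) carried the same reporter and had no tumors. Per the labels, mice were bought at 7 to 12 weeks of age and controls were matched by age and sex. The labels give neither the sex nor the age at sorting of single animals, no DSS dose and no mock treatment of naive mice. From each mouse CD45+TCR+CD4+Foxp3+ cells were sorted by both receptors into a double-positive gate (TSLPR+ST2+), both single-positive gates (TSLPR+ST2- or TSLPR-ST2+) and a double-negative gate (TSLPR-ST2-), which gives 8 groups of 4 libraries, and 1 further library held Foxp3-CD44low T cells without disease. Mice given AOM only or DSS only are not analysed here, so tumors, repeated colitis and the chemicals cannot be told apart.

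HSP90 and HSP70 bind unfolded or unstable client proteins and release them in cycles of ATP hydrolysis. J-domain proteins bring clients to HSP70, the co-chaperone Stip1 (HOP) joins HSP70 to HSP90, Ahsa1 speeds the HSP90 ATPase, Ptges3 (p23) slows client release, Cdc37 brings kinases and Fkbp4 serves steroid receptors. CCT is a double ring of related subunits that folds actin and tubulin. Heat or other proteotoxic stress raises the inducible HSP70 genes Hspa1a and Hspa1b, with Dnajb1, Hsph1, Bag3 and Hsp90aa1, through the transcription factor HSF1, which binds heat shock elements in their promoters. ER stress raises Hspa5 (BiP) and Hsp90b1 (GRP94) through a separate element. Enzymatic digestion of a tissue, which these colons went through before sorting, is known to raise immediate early and heat shock genes.

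Promoter windows of 30 of the 37 genes were at hand (RefSeq, GRCm38.p6, 250 bases before to 50 after the gene start). The sequences below run 5′ to 3′ on the strand of the gene and stop 20 bases after its RefSeq start. RefSeq starts can differ from the gene positions given later, which come from GENCODE. The Stip1 stretch lies wholly upstream of the GENCODE gene, and the RefSeq start of Chordc1 lies inside the GENCODE gene. They are shown because the genes they belong to carry the comparisons that follow: Chordc1, Hspe1 and Stip1 for the difference between cancer and naive mice, Hspa1b for the inducible HSP70 genes, and Hspa5 and Hsp90b1 for the TSLPR gates. Capitals mark a heat shock element of 3 units (GAA, any 2 bases, TTC, any 2 bases, GAA, on either strand, overlapping matches merged) for Chordc1 and Hspe1, a shorter one of 2 units (GAA and TTC in either order, 2 bases apart) for Hspa1b, and the ER stress response element (CCAAT, any 9 bases, CCACG, on either strand) for Hspa5 and Hsp90b1. The Stip1 window held neither heat shock form and has no capitals. The stretches are chr9:18292017-18292286 (+) for Chordc1, chr1:55087898-55088167 (+) for Hspe1, chr19:7040007-7040276 (-) for Stip1, chr17:34959219-34959488 (-) for Hspa1b, chr2:34771840-34772109 (+) for Hspa5 and chr10:86705425-86705694 (-) for Hsp90b1.
Chordc1: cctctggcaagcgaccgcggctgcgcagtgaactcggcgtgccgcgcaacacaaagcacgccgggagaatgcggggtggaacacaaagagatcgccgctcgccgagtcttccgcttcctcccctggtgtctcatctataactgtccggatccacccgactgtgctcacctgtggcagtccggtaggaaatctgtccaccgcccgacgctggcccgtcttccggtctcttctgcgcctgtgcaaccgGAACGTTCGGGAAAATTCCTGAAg
Hspe1: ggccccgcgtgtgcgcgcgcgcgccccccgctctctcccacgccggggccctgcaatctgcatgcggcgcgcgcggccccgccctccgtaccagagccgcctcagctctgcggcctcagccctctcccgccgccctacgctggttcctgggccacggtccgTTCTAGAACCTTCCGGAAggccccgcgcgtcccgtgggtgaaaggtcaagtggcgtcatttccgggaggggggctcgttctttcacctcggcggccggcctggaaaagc
Stip1: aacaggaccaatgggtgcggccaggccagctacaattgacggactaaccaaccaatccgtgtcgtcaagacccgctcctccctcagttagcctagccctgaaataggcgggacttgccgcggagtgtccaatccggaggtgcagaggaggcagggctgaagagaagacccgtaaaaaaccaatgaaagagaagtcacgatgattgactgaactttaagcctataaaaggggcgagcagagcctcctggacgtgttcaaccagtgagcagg
Hspa1b: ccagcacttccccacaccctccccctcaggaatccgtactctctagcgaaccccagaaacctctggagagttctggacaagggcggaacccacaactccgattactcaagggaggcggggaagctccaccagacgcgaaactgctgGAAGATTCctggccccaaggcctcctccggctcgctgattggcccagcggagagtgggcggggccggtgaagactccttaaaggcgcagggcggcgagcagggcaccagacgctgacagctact
Hspa5: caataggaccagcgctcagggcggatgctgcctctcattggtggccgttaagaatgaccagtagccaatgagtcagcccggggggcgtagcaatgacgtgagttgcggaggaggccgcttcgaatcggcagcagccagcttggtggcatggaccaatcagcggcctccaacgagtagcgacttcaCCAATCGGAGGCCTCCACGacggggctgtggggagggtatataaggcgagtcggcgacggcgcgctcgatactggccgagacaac
Hsp90b1: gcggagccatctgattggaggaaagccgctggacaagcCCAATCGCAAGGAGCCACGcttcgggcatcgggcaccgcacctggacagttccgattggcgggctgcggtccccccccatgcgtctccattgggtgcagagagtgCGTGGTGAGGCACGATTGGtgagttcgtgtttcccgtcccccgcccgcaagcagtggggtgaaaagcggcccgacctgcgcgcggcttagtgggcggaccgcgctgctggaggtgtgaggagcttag

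The 3-unit element was found in the windows of 5 of the 30 genes (16.7%), against 0.662% of the 27025 genes with a window: Chordc1, Dnajb6, Hspd1, Hspe1 and Hsph1. Counting the RefSeq gene start as 0, Chordc1 had 3 overlapping matches that begin at -4, 1 and 6, and Hspe1 had 2 that begin at -89 and -84. Hspd1 and Hspe1 lie head to head on chromosome 1, and the Hspd1 window holds the same bases on the other strand, so these matches are not independent. The 2-unit element, which is part of the longer one, was in the windows of 15 of the 30 genes and in 17.0% of all genes with a window. The ER element was found in 2 of the 30, Hspa5 at -65 and Hsp90b1 at -212 and -107, against 0.137% of all genes. A match describes letters in a window, and no factor's binding was measured here.

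The 32 Treg libraries held 4038718 to 8839946 counts each (median 6433005), and the chaperone genes together took 1.14 to 1.74% of the counts of a library. Foxp3 was detected in every Treg library, and Il1rl1, the ST2 gene, was at 95.6 to 308.9 CPM (counts scaled to a common library total) in ST2+ libraries against 0 to 11.0 CPM in ST2- libraries. Crlf2, the TSLPR gene, was at 25.2 to 57.2 CPM in TSLPR+ libraries against 8.76 to 30.5 CPM in TSLPR- libraries, and in cancer mouse 5 the TSLPR+ST2+ library (25.2 CPM) was below the TSLPR-ST2+ library (30.5 CPM). In TSLPR+ST2+, the cancer libraries were shallower (4038718 to 5816224 counts) than the naive libraries (6607867 to 8839946), without overlap. CPM here are scaled by TMM, which adjusts library totals so that most genes do not differ. In RNA of sorted pools, fewer cells of a type and less RNA per cell cannot be told apart.

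Per kilobase of exon, Hsp90ab1 was highest and the inducible HSP70 genes lowest of the 37. Over the 32 Treg libraries Hsp90ab1, the constitutive cytosolic HSP90, averaged 730.3 ± 84.0 CPM per kb (SD, n = 32), followed by Hspa8 (HSC70) at 364.7 ± 37.9 and Stip1 at 270.2 ± 55.5 CPM per kb. Their ranges set the first apart from the other two: 566.3 to 922.8 for Hsp90ab1, against 276.8 to 456.8 for Hspa8 and 183.2 to 398.7 CPM per kb for Stip1, which overlap each other. Among the CCT subunits, which sit in the ring in equal number, the level ran from 62.8 ± 10.6 CPM per kb for Tcp1 to 216.8 ± 28.2 for Cct5. Hspa5 stood at 166.6 ± 29.4, Bag1 at 159.1 ± 23.2, Dnajb1 at 130.0 ± 22.2 and Hspe1, the mitochondrial co-chaperonin, at 83.9 ± 19.3 CPM per kb. At the low end were Hspa1b with 3.30 ± 2.30 and Hspa1a with 0.415 ± 0.515 CPM per kb. Exon lengths come from the gene annotation and count every annotated exon, which lowers the value of genes with rarely used exons.

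The spread between libraries of a group was widest for the inducible HSP70 genes. The median coefficient of variation within the 8 groups was 9.17% for the middle CCT subunit (5.42 to 11.3% over the 8) and 10.5% for the middle co-chaperone (7.02 to 19.0% over the 9), against 50.6% for Hspa1b and 118% for Hspa1a. Hspa1a had a median of 3.50 counts per library and 0 in 9 of 32 libraries, and Hspa1b a median of 55.5 counts and 0 in 1 library. The coding sequences of Hspa1a and Hspa1b are nearly identical, so how reads were split between them is uncertain. Bag3, an HSP70 nucleotide exchange factor and HSF1 target, was also variable, with a median coefficient of 41.9%.

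Cancer and naive mice were compared first on the sum of the 4 gates of each mouse. Of the 9 HSP90 co-chaperones 4 (Stip1, Chordc1, Ahsa1 and Ahsa2) were higher in cancer mice, as were the J-domain gene Dnaja1 and the mitochondrial pair Hspd1 and Hspe1, by 1.22 to 1.57-fold over these 7 genes, while no CCT subunit and no inducible HSP70 gene passed the test. With edgeR's quasi-likelihood test and Benjamini-Hochberg adjustment at 0.05 over 15338 genes, 7 of the 37 rose and 0 fell, with 1 of those lower, Hspa5, at an unadjusted p under 0.05. DESeq2 called the same 7 with Fkbp4 and Hsp90ab1 as higher and Hspa5 as lower. Over all genes tested, 1.21% were called, 0.287% as higher and 0.926% as lower. Of the chaperone genes 28 had a positive estimate and 9 a negative one, and their median log2 difference was 0.10, against 0.01 over all genes.

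**Figure D1:**
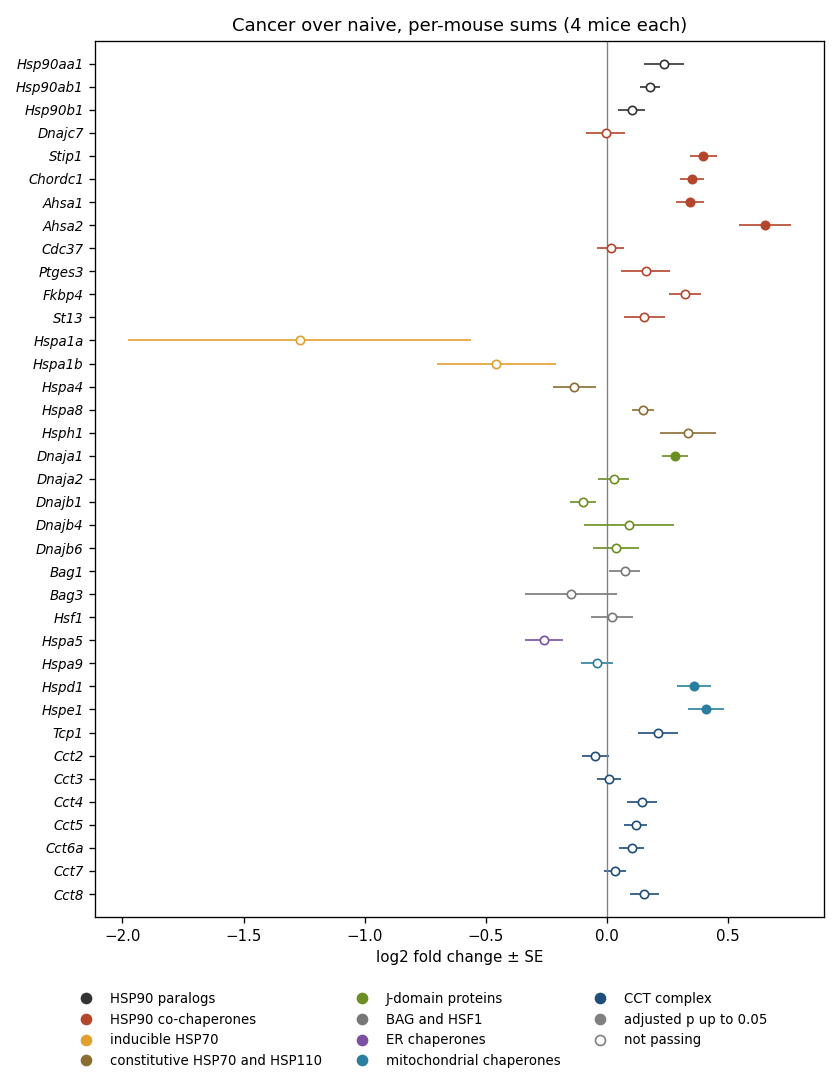
Estimated log2 fold change of cancer over naive mice for each of the 37 genes, from the 4 gates of a mouse summed (4 cancer and 4 naive mice), with bars of 1 standard error and colors by class; filled points passed an adjusted p of 0.05. The filled points are 4 co-chaperones, Dnaja1, Hspd1 and Hspe1, and the CCT subunits lie between -0.05 and 0.21.

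Stip1, which lies on chromosome 19 (7020702 to 7039967, - strand, GRCm38), had 654.0, 633.7, 629.2 and 684.8 CPM in cancer mice 5 to 8, against 506.7, 525.6, 486.2 and 457.0 CPM in naive mice 1 to 4. The lowest cancer mouse was above the highest naive mouse. The log2 difference was 0.40 (SE 0.056, 1.32-fold, edgeR adjusted p = 0.0174). Chordc1, an HSP90-binding CHORD protein (chromosome 9, 18292125 to 18317442, + strand), had 327.7, 331.9, 352.5 and 338.1 CPM in cancer mice, against 274.9, 259.7, 262.9 and 260.8 CPM in naive mice. The groups did not overlap, and the log2 difference was 0.35 (SE 0.0505, 1.28-fold, edgeR adjusted p = 0.0182).

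The HSP90 ATPase activator Ahsa1 (chromosome 12, 87266479 to 87273998, + strand) had 360.3, 374.3, 359.5 and 361.0 CPM in cancer mice, against 299.5, 306.2, 266.9 and 274.8 CPM in naive mice. Its 4 cancer mice lay close together and above all naive mice (log2 0.34, SE 0.059, 1.27-fold, edgeR adjusted p = 0.0321). Its paralog Ahsa2 (chromosome 11, 23487882 to 23498030, - strand) had 73.3, 74.8, 66.6 and 59.8 CPM in cancer mice, against 47.4, 40.8, 43.5 and 42.8 CPM in naive mice, the largest estimate of the 7 (log2 0.65, SE 0.106, 1.57-fold, edgeR adjusted p = 0.0278). Exons of Ahsa2 overlap exons of Usp34 on the other strand, and with strand use in the counting not given in the sources used here, reads of the overlap cannot be told apart. Exons of Ahsa1, Dnaja1, Dnajb6, Dnajc7, Hsp90b1, Hspa1a, Hspa8, Cct6a, Cct7, Cct8 and Tcp1 also overlap other annotated genes. Fkbp4 had 482.9, 455.3, 412.1 and 452.9 CPM in cancer mice, against 378.2, 362.2, 373.4 and 329.1 CPM in naive mice, without overlap, and missed the limit (log2 0.32, edgeR adjusted p = 0.0558). The other 4 co-chaperones, Cdc37, Ptges3, St13 (HIP) and Dnajc7, overlapped between cancer and naive mice, with log2 estimates of at most 0.16. The 9 co-chaperones summed to 2724 to 2889 CPM in cancer mice, against 2253 to 2378 CPM in naive mice.

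**Figure D2:**
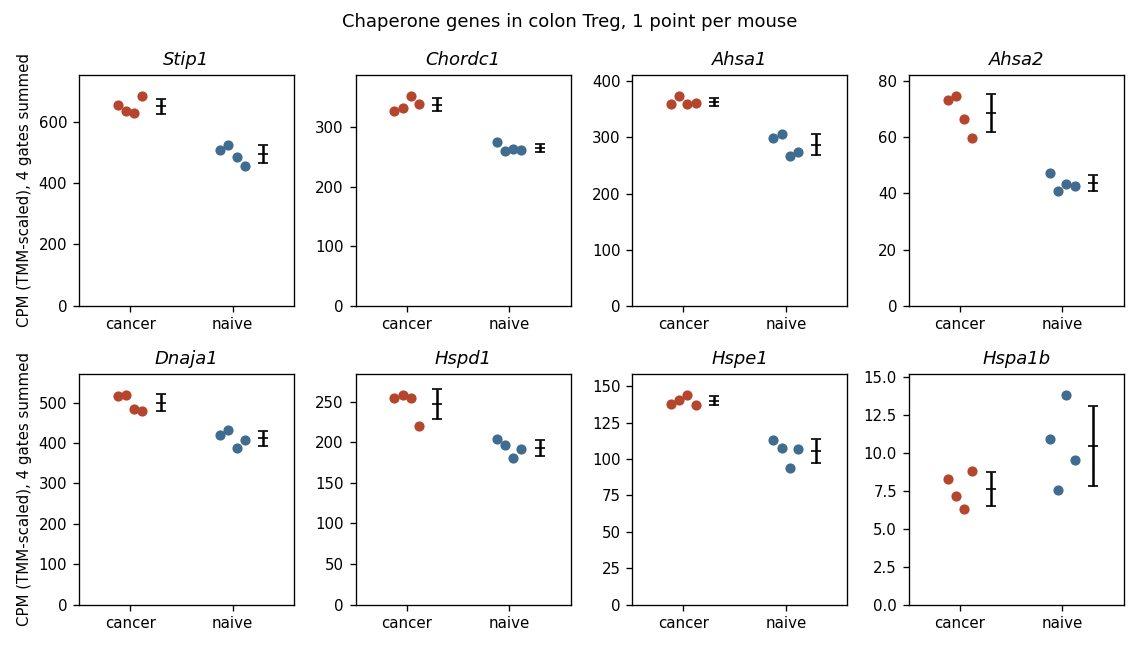
Level of 8 genes in each mouse, as CPM of the 4 gates summed (4 cancer mice left, 4 naive mice right), with the mean and SD of each group beside the points. For the 7 genes that passed, every cancer mouse is above every naive mouse, and Hspa1b, which did not pass, overlaps.

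Among the J-domain proteins, Dnaja1 (chromosome 4, 40722150 to 40737149, + strand), a farnesylated HSP40, had 516.6, 520.2, 485.6 and 478.7 CPM in cancer mice, against 419.1, 432.3, 387.5 and 407.7 CPM in naive mice. The groups did not overlap (log2 0.28, SE 0.054, 1.22-fold, edgeR adjusted p = 0.0452). Dnajb1, an HSP40 that HSF1 drives, did not pass, with 393.6 to 419.6 CPM in cancer mice, against 402.4 to 450.2 CPM in naive mice (log2 -0.10, SE 0.053, adjusted p = 0.390). Dnaja2, Dnajb4 and Dnajb6 had log2 estimates from 0.03 to 0.09.

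The mitochondrial chaperonin genes Hspd1 (HSP60; chromosome 1, 55077835 to 55088243, - strand) and Hspe1 (HSP10; chromosome 1, 55088132 to 55091307, + strand) share a promoter region, and their first exons overlap. Hspd1 had 254.4, 258.6, 254.9 and 220.3 CPM in cancer mice, against 203.7, 196.0, 180.0 and 191.0 CPM in naive mice (log2 0.36, SE 0.071, 1.28-fold, edgeR adjusted p = 0.0499). Hspe1 had 137.9, 140.4, 144.2 and 137.2 CPM in cancer mice, against 112.8, 107.8, 93.7 and 107.1 CPM in naive mice (log2 0.41, SE 0.074, 1.33-fold, edgeR adjusted p = 0.0346). Both sets were free of overlap. The mitochondrial HSP70 Hspa9 averaged 226.0 ± 11.8 CPM in cancer mice and 232.5 ± 13.8 CPM in naive mice (SD, n = 4 each; log2 -0.04).

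The HSP90 paralogs had positive estimates that missed the limit. Hsp90ab1 ranged from 2217 to 2408 CPM in cancer mice, against 1983 to 2165 CPM in naive mice (log2 0.18, SE 0.041, adjusted p = 0.0790), and Hsp90aa1, the inducible paralog, from 557.7 to 615.0 CPM in cancer mice, against 407.4 to 529.5 CPM in naive mice (log2 0.24, adjusted p = 0.191). Neither gene overlapped between the groups. Hspa8 ranged from 1608 to 1665 CPM in cancer mice, against 1368 to 1556 CPM in naive mice (log2 0.15, adjusted p = 0.149). Hsph1, an HSP110 exchange factor, ranged from 291.0 to 357.7 CPM in cancer mice, against 201.9 to 289.2 CPM in naive mice (log2 0.34, adjusted p = 0.183). In all, 14 of the 37 genes (37.8%) had every cancer mouse above every naive mouse, against 5.53% of the genes tested, and 1, Hspa5, had every cancer mouse below (5.80% of the genes tested).

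The inducible HSP70 genes had negative estimates and did not pass. Hspa1b had 8.25, 7.15, 6.30 and 8.82 CPM in cancer mice, against 10.9, 7.56, 13.9 and 9.56 CPM in naive mice, with overlap (log2 -0.46, SE 0.246, adjusted p = 0.387). Hspa1a had 0.162 to 1.51 CPM in cancer mice and 0.678 to 2.24 CPM in naive mice (adjusted p = 0.407). Of the 7 members known as stress-inducible (Hspa1a, Hspa1b, Hsph1, Dnajb1, Hsp90aa1, Dnajb4 and Bag3), 0 passed with edgeR or DESeq2, and Hsph1 and Hsp90aa1 had an unadjusted p under 0.05. Hsf1, which encodes the heat shock factor, averaged 145.7 ± 14.9 CPM in cancer mice and 143.6 ± 8.44 CPM in naive mice (SD, n = 4 each).

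Of the 8 CCT subunits 0 passed with edgeR or DESeq2, with 7 positive estimates, a median log2 of 0.11, and 4 (Cct4, Cct5, Cct8 and Tcp1) at an unadjusted p under 0.05. Cct5 ranged from 600.0 to 653.7 CPM in cancer mice, against 547.3 to 592.8 CPM in naive mice (log2 0.12, adjusted p = 0.244), and Cct4 from 426.5 to 465.2 CPM in cancer mice, against 358.7 to 417.0 CPM in naive mice (log2 0.14, adjusted p = 0.283). These 2 subunits did not overlap between the groups, and the other 6 did. The ER chaperone Hspa5 had 647.0, 668.5, 575.9 and 679.2 CPM in cancer mice, against 762.9, 729.9, 874.6 and 711.0 CPM in naive mice, with every cancer mouse lower but an adjusted p of 0.138 (log2 -0.26).

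Leaving out 1 mouse at a time left 0 to 4 of the 7 calls, with 0 calls without naive mouse 4 or without cancer mouse 6, although the estimates kept their sign. Stip1 kept its call in 5 of the 8 such fits, with adjusted p up to 0.0657 (without mice 4, 6 or 8 above 0.05), and Chordc1 in 3, with adjusted p up to 0.0683 (without mice 2, 4, 6, 7 or 8 above 0.05). Ahsa1 and Hspe1 passed only without mouse 3, Ahsa2 and Hspd1 only without mouse 8, and Dnaja1 in none of them, with adjusted p up to 0.134 over these 5 genes. Ahsa1, Dnaja1, Hspe1 and Hspd1 also lost their calls without the low-count filter, and Hspd1 with counts thinned to equal totals. Mitochondrial transcripts took 1.39 to 1.88% of the counts in cancer mice, against 0.775 to 1.15% in naive mice. With that share as a covariate 0 of the 15338 genes passed (Stip1 log2 0.42, adjusted p = 0.328, and Hspd1 log2 0.12, adjusted p = 0.805). The share did not overlap between cancer and naive mice, so this fit cannot tell it apart from status. Macrophage and dendritic markers summed to 281 to 732 CPM in cancer mice, against 782 to 1201 CPM in naive mice, and Cd68 and C1qb of the 8 fell. Lyz2, the largest part of the sum, overlapped, with 154.0 to 539.4 CPM in cancer mice and 532.5 to 752.8 CPM in naive mice. Itgax and Adgre1 went the other way, with overlap, while the rest of the list had lower means in cancer mice. Itgax averaged 1.77 CPM in cancer and 0.667 CPM in naive mice, and Adgre1 7.30 and 2.36 CPM. Itgax was at 0 in naive mouse 2 and Adgre1 in naive mouse 4. Among the Treg markers, Il2ra averaged 413.0 ± 5.03 CPM in cancer mice and 626.8 ± 72.3 CPM in naive mice (SD, n = 4 each), without overlap. Foxp3 averaged 127.9 ± 15.1 and 166.0 ± 22.9 CPM, with overlap, and DESeq2 called both lower. Ctla4, Cd4, Cd3e and Ptprc also had lower means in cancer mice and Ikzf2 a higher one, all with overlap. The part of the macrophage, dendritic and Treg marker differences in the chaperone values was not tested.

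Within the gates, Stip1 and Chordc1 were the co-chaperones that passed in more than 1 gate. In TSLPR-ST2- cells, where 0.209% of 14861 genes were called (0.0606% higher and 0.148% lower), Stip1 and Chordc1 rose. Stip1 had 793.0, 704.9, 776.8 and 840.5 CPM in the cancer libraries, against 538.5, 584.8, 610.2 and 545.7 CPM in the naive libraries (log2 0.45, SE 0.095, edgeR adjusted p = 0.0336). Chordc1 had 364.6, 340.2, 385.4 and 379.2 CPM in the cancer libraries, against 237.5, 265.9, 276.2 and 281.8 CPM in the naive libraries (log2 0.47, SE 0.101, edgeR adjusted p = 0.0407). Neither gene overlapped between the groups. In TSLPR+ST2- cells, where 0.0471% of genes were called (0.0269% higher and 0.0202% lower), Stip1 alone of the 37 passed: 641.4, 651.9, 606.2 and 735.9 CPM in the cancer libraries, against 512.7, 457.3, 483.7 and 439.9 CPM in the naive libraries (log2 0.48, SE 0.095, edgeR adjusted p = 0.0475). With 1 mouse left out, Stip1 passed in TSLPR-ST2- only without mouse 3 or 6 (adjusted p up to 0.240) and in TSLPR+ST2- only without mouse 6 (up to 0.316), and Chordc1 passed in none of the 8 fits (up to 0.239). In the libraries of either gate alone, neither gene passed. Hsph1 also separated the groups in both ST2- gates, with 365.6 to 421.9 CPM in the cancer libraries, against 212.9 to 311.2 CPM in the naive libraries, in TSLPR-ST2- (log2 0.49, adjusted p = 0.565).

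In TSLPR-ST2+ cells 0.202% of genes were called (0.0471% higher and 0.155% lower) and 0 of the 37 passed with edgeR, while 9 had an unadjusted p under 0.05, all 9 higher in cancer mice, and DESeq2 called 2. The estimate for Stip1 there was 0.37 (SE 0.095, adjusted p = 0.112), and for Ahsa1 0.46 (SE 0.118, adjusted p = 0.111). The Stip1 levels were 640.7, 596.3, 619.7 and 698.2 CPM in the cancer libraries, against 513.1, 520.3, 458.3 and 490.6 CPM in the naive libraries, without overlap.

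In TSLPR+ST2+ cells Dnaja1, Ahsa2 and Chordc1 rose, and Dnajb1 and Hspa4 fell, where 4.16% of genes were called (1.66% higher and 2.50% lower). Dnajb1 had 243.7, 296.7, 288.2 and 302.8 CPM in the cancer libraries, against 332.9, 461.6, 386.5 and 383.4 CPM in the naive libraries (log2 -0.47, SE 0.096, edgeR adjusted p = 0.00599). Its groups did not overlap, and it passed in each of the 8 fits without 1 mouse (adjusted p 0.00450 to 0.0383). Hspa4 (APG-2), an HSP110 exchange factor, had 111.6, 168.1, 185.9 and 124.2 CPM in the cancer libraries, against 218.8, 216.5, 244.3 and 195.1 CPM in the naive libraries (log2 -0.57, SE 0.165, edgeR adjusted p = 0.0456), and lost its call without any 1 of mice 1, 2, 3, 4, 5 and 8 (adjusted p up to 0.136), with RLE size factors (adjusted p = 0.0571), without the low-count filter (0.0726) and with the mouse as a replicate block (limma-voom, adjusted p = 0.0574).

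Dnaja1 in the same gate had 513.9, 490.0, 468.5 and 449.1 CPM in the cancer libraries, against 341.4, 433.8, 306.8 and 332.3 CPM in the naive libraries (log2 0.44, SE 0.092, edgeR adjusted p = 0.00651; 0.0526 without mouse 4). So the J-domain genes Dnaja1 and Dnajb1 differed in opposite directions between the same libraries. Ahsa2 had 97.5, 96.8, 53.3 and 43.6 CPM in the cancer libraries, against 43.6, 44.2, 30.6 and 29.9 CPM in the naive libraries (log2 0.97, SE 0.228, edgeR adjusted p = 0.0150; up to 0.0906 without mice 3, 4, 5 or 6). The groups overlap, since the lowest cancer library was just below the highest naive library. Chordc1 had 325.8, 278.4, 283.9 and 335.9 CPM in the cancer libraries, against 223.5, 253.4, 225.3 and 253.1 CPM in the naive libraries (log2 0.36, edgeR adjusted p = 0.0420; 0.0534 to 0.145 without 1 mouse). It also lost its call without the low-count filter (adjusted p = 0.155) and with the mouse as a replicate block (limma-voom, adjusted p = 0.0629).

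Stip1 did not pass in that gate, with 482.0, 564.5, 492.5 and 446.7 CPM in the cancer libraries, against 460.1, 542.3, 393.4 and 386.2 CPM in the naive libraries, which overlap (log2 0.16, SE 0.095, adjusted p = 0.378). A test of whether the cancer difference itself depends on ST2 called 0 genes with edgeR and 46 with DESeq2, where 926 had an unadjusted p under 0.05. Stip1 (-0.20, SE 0.094, adjusted p = 0.754), Dnajc7 (-0.30, adjusted p = 0.744) and Bag1 (0.22, adjusted p = 0.753) were the 3 of the 37 among these 926. The corresponding test for TSLPR called 0 genes with edgeR and 48 with DESeq2, where 1178 had an unadjusted p under 0.05. Among these were Hspa4 (-0.47, adjusted p = 0.486), Hspa9 (-0.47, adjusted p = 0.514), Cct6a (-0.30, adjusted p = 0.566) and Dnajb1 (-0.21, adjusted p = 0.611). DESeq2 called 0 of the 37 in either test, so no dependence on the gate was detectable for these genes with 4 mice a group. In TSLPR+ST2+ the cancer libraries also had more mitochondrial transcripts (1.43 to 3.23% of counts, against 0.618 to 1.24% in the naive libraries), fewer macrophage and dendritic transcripts (382 to 767 CPM, against 1366 to 2178 CPM) and, in their highest library, 2725 CPM of epithelial markers, against at most 199 CPM in the naive libraries. In fits of the 8 libraries of this gate alone, or with the mitochondrial share as a covariate, 0 of the 37 passed. The mitochondrial share did not overlap between the cancer and naive libraries of this gate, so it cannot be told apart from status there. Whether the macrophage, dendritic and epithelial differences bear on the chaperone values was not tested.

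**Figure D3:**
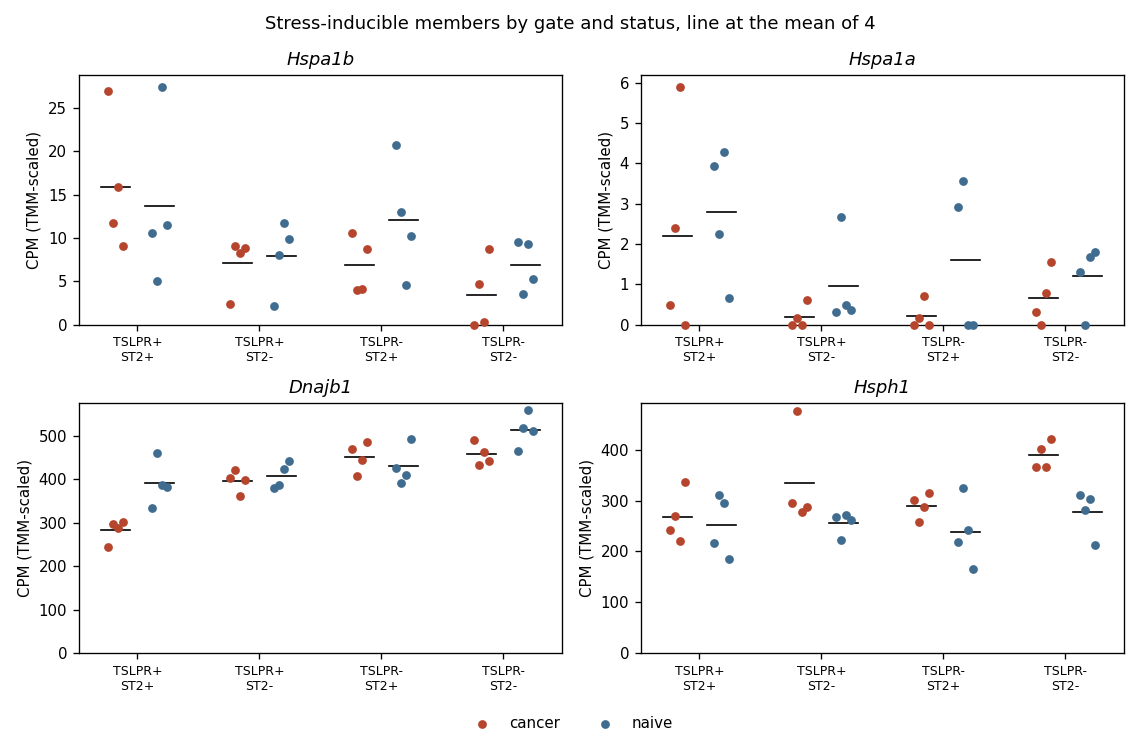
Level of Hspa1b, Hspa1a, Dnajb1 and Hsph1 in each library as CPM, by gate (TSLPR+ST2+ left to TSLPR-ST2- right) and by status (cancer left, naive right in each gate), with a line at the mean of 4 libraries. Dnajb1 separates cancer from naive libraries in TSLPR+ST2+ alone, while Hspa1b and Hspa1a overlap in each gate and no Hspa1a library exceeds 5.90 CPM.

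Hspa1b and Hspa1a were followed gate by gate. Hspa1b had 27.0, 11.7, 15.9 and 9.12 CPM in the cancer libraries of TSLPR+ST2+, against 10.6, 5.05, 27.4 and 11.5 CPM in the naive libraries, and 0, 4.72, 0.316 and 8.72 CPM in the cancer libraries of TSLPR-ST2-, against 9.51, 3.55, 9.32 and 5.26 CPM in the naive libraries. Cancer and naive libraries overlapped in each gate (SE of the log2 estimates from 0.82 to 0.84). The stress-inducible HSP70 pair together summed to 18.1 ± 8.11 CPM in the cancer libraries of TSLPR+ST2+ and 16.4 ± 10.6 CPM in the naive libraries, both SD with n = 4.

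ST2+ cells had less RNA of the CCT complex and of several HSP90 co-chaperones than ST2- cells. In the model of 32 libraries, where 6.04% of genes were called (3.70% higher and 2.33% lower), 11 of the 37 fell and 0 rose: 5 of the 8 CCT subunits (Cct5, Cct7, Cct6a, Cct8 and Tcp1), the co-chaperones Fkbp4, Stip1 and Ahsa1, and Dnajb1, Hspa8 and Hsp90ab1. That model has no mouse term and takes libraries as replicates. All 8 CCT subunits had negative estimates, from -0.27 to -0.13 with a median log2 of -0.24. The median over the 37 was -0.15, against -0.00 over all genes. Of the 37, 3 of those higher in ST2+ cells had an unadjusted p under 0.05, and DESeq2 too called 11 lower and 0 higher.

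Cct5 ranged from 463.8 to 679.7 CPM with a median of 535.9 in the 16 ST2+ libraries, against 554.2 to 769.6 CPM with a median of 640.4 in the 16 ST2- libraries. It was lower in ST2+ cells in 8 of 8 mice (log2 -0.26, SE 0.044, edgeR adjusted p = 0.000361). Cct7 ranged from 422.1 to 619.6 CPM (median 499.1) in ST2+ libraries, against 557.7 to 703.8 CPM (median 630.5) in ST2- libraries, again lower in 8 of 8 mice (log2 -0.27, SE 0.048, edgeR adjusted p = 0.000730). For both genes the ranges overlap over all libraries, while the mean of the ST2+ gates was lower within each mouse. Fkbp4 ranged from 210.2 to 554.7 CPM (median 338.9) in ST2+ libraries, against 366.1 to 556.7 CPM (median 439.2) in ST2- libraries, lower in 8 of 8 mice and with the largest fold of the 11 (log2 -0.34, SE 0.061, 1.27-fold lower, edgeR adjusted p = 0.000655). Stip1 ranged from 386.2 to 698.2 CPM (median 502.8) in ST2+ libraries, against 439.9 to 840.5 CPM (median 608.2) in ST2- libraries, and was lower in 7 of 8 mice (log2 -0.25, SE 0.047, edgeR adjusted p = 0.00132).

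These 4 genes kept their calls whichever mouse was left out, and the other 7 did not. Cct6a (log2 -0.26, adjusted p = 0.00869) and Cct8 (log2 -0.23, adjusted p = 0.0155) were lower in 7 of 8 mice each, Tcp1 (log2 -0.24, adjusted p = 0.0217) in 7, Hspa8 (log2 -0.15, adjusted p = 0.0153) in 7, Hsp90ab1 (log2 -0.16, adjusted p = 0.0167) in 6, and Dnajb1 (log2 -0.20, adjusted p = 0.00835) and Ahsa1 (log2 -0.23, adjusted p = 0.0179) in 8. In fits without 1 mouse, 6 to 12 of the 37 passed, with the lowest count without mouse 3, 4 or 7. Mice 1, 6 and 8 also ended 1 or more of these calls. The highest adjusted p of these 7 was 0.114 (Hsp90ab1). Of the 37, 6 (16.2%) were lower in 8 of 8 mice, against 2.73% of the genes tested, and 1, Hspa1b, was higher in 8 of 8 mice, against 2.66%. Hspa1b had a median of 10.6 CPM in ST2+ libraries and 8.12 CPM in ST2- libraries (log2 0.93, SE 0.417, adjusted p = 0.198), and Bag3 22.6 CPM and 13.4 CPM (log2 0.80, SE 0.323, adjusted p = 0.145).

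**Figure D4:**
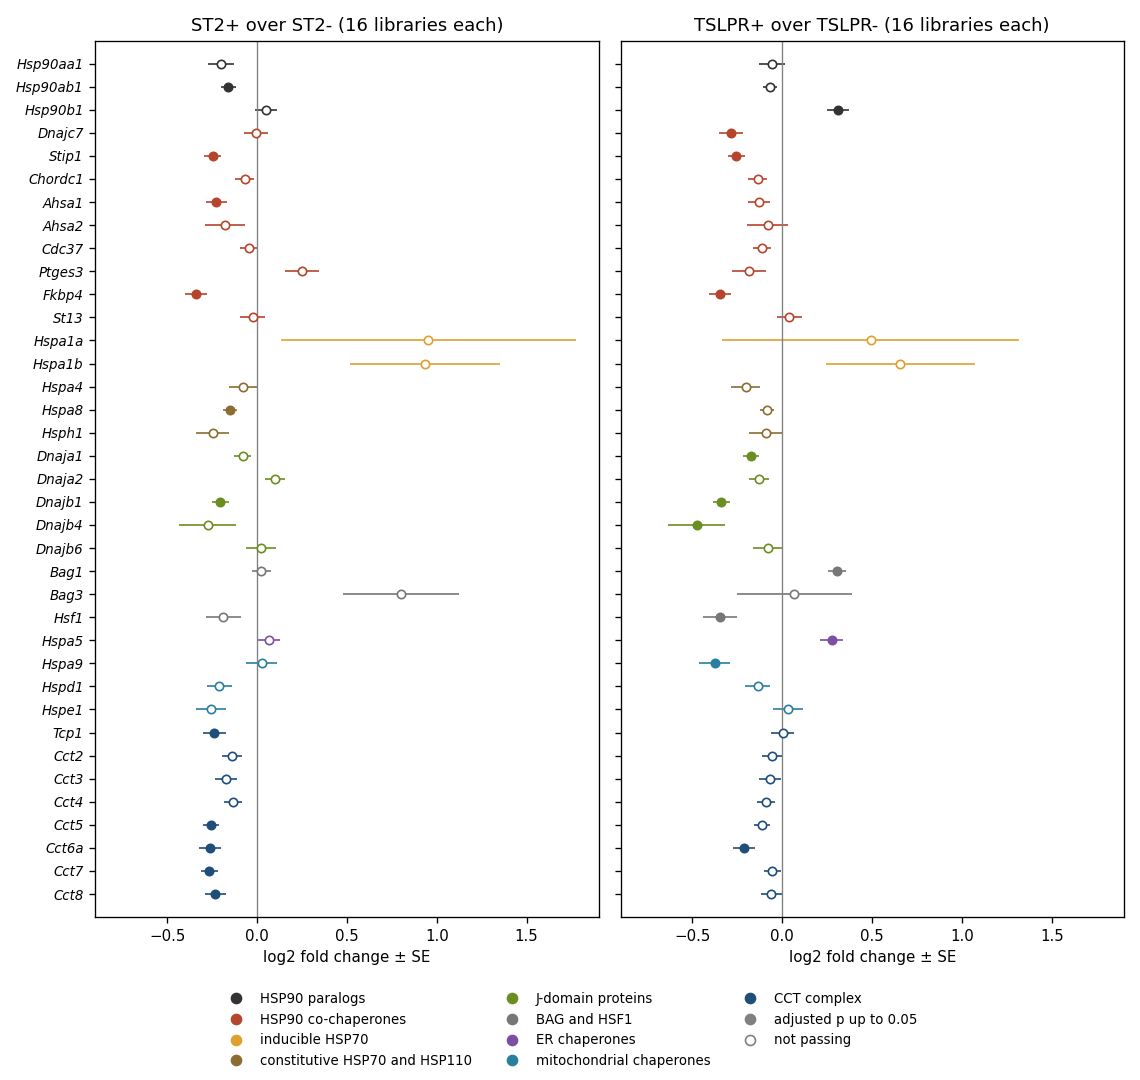
Estimated log2 fold change of ST2+ over ST2- (left) and TSLPR+ over TSLPR- (right) for each of the 37 genes, over 16 libraries each, with bars of 1 standard error and colors by class; filled points passed an adjusted p of 0.05. The 8 CCT subunits lie left of 0 in the ST2 panel with 5 filled, against 1 filled in the TSLPR panel, where Hsp90b1, Hspa5 and Bag1 are filled at the right of 0.

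Dnajb1 and the co-chaperones Fkbp4 and Stip1 were also lower in TSLPR+ cells, while the ER chaperones were higher. Among the 37, 9 (24.3%) fell and 3 (8.11%) rose between TSLPR+ and TSLPR- libraries. Over all genes 13.4% were called there, 7.97% as higher and 5.46% as lower, so the share that rose was near that of all genes. Dnajb1 ranged from 243.7 to 461.6 CPM (median 384.8) in the 16 TSLPR+ libraries, against 390.7 to 559.8 CPM (median 464.4) in the 16 TSLPR- libraries, and was lower in 8 of 8 mice (log2 -0.34, SE 0.048, edgeR adjusted p = 1.11e-05). Fkbp4 ranged from 210.2 to 478.9 CPM (median 354.2) in TSLPR+ libraries, against 334.8 to 556.7 CPM (median 450.0) in TSLPR- libraries (log2 -0.35, SE 0.061, edgeR adjusted p = 0.000207). Stip1 ranged from 386.2 to 735.9 CPM (median 488.1) in TSLPR+ libraries, against 458.3 to 840.5 CPM (median 603.3) in TSLPR- libraries (log2 -0.26, SE 0.047, edgeR adjusted p = 0.000345). Fkbp4 and Stip1 too were lower in 8 of 8 mice, although their ranges overlap.

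The other genes that fell were Hspa9 (log2 -0.38, adjusted p = 0.00295) and Dnaja1 (log2 -0.17, adjusted p = 0.00993), each lower in 8 of 8 mice, and Dnajc7 (TPR2; log2 -0.29, adjusted p = 0.0041), Hsf1 (log2 -0.35, adjusted p = 0.0146) and Dnajb4 (log2 -0.48, adjusted p = 0.0444), lower in 7. Cct6a (log2 -0.21, adjusted p = 0.0184), lower in 6, was the 1 CCT subunit among them. The other 7 had log2 estimates from -0.11 to 0.00. Leaving out mice ended the calls of Dnaja1 (adjusted p = 0.0789 without mouse 1), Hsf1 (up to 0.119, without mice 1, 2 or 7), Cct6a (up to 0.0902, without mice 2, 3, 5 or 7) and Dnajb4 (up to 0.204, without mice 1, 2, 5, 6, 7 or 8). Dnajb4 also lost its call with RLE size factors, without the low-count filter and with counts thinned to equal totals. Without cancer mouse 5, whose Crlf2 order went against its gates, 10 of the 37 passed.

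Bag1, an HSP70 nucleotide exchange factor, ranged from 187.8 to 268.3 CPM (median 241.4) in TSLPR+ libraries, against 166.0 to 247.2 CPM (median 188.0) in TSLPR- libraries (log2 0.30, SE 0.051, edgeR adjusted p = 9.68e-05). Hsp90b1 ranged from 260.3 to 381.0 CPM (median 312.8) in TSLPR+ libraries, against 200.5 to 297.7 CPM (median 252.7) in TSLPR- libraries (log2 0.31, SE 0.060, edgeR adjusted p = 0.000600). Hspa5 ranged from 606.5 to 984.7 CPM (median 757.1) in TSLPR+ libraries, against 489.3 to 903.9 CPM (median 647.2) in TSLPR- libraries (log2 0.28, SE 0.063, edgeR adjusted p = 0.00318). All 3 were higher in 8 of 8 mice and kept their calls whichever mouse was left out. In the other direction, 6 of the 37 (16.2%) were lower in 8 of 8 mice, against 3.49% of the genes tested, while the 3 (8.11%) that were higher stand against 5.35%. Of 19 further ER stress genes, 7 rose and 0 fell in TSLPR+ libraries. Among them were Sdf2l1, a cofactor of BiP (log2 0.88, adjusted p = 7.52e-05), Calr, the lectin chaperone calreticulin (log2 0.36, adjusted p = 3.92e-05), the disulfide isomerase Pdia6 (log2 0.41, adjusted p = 0.00332) and the transcription factor Xbp1 (log2 0.28, adjusted p = 0.00817).

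**Figure D5:**
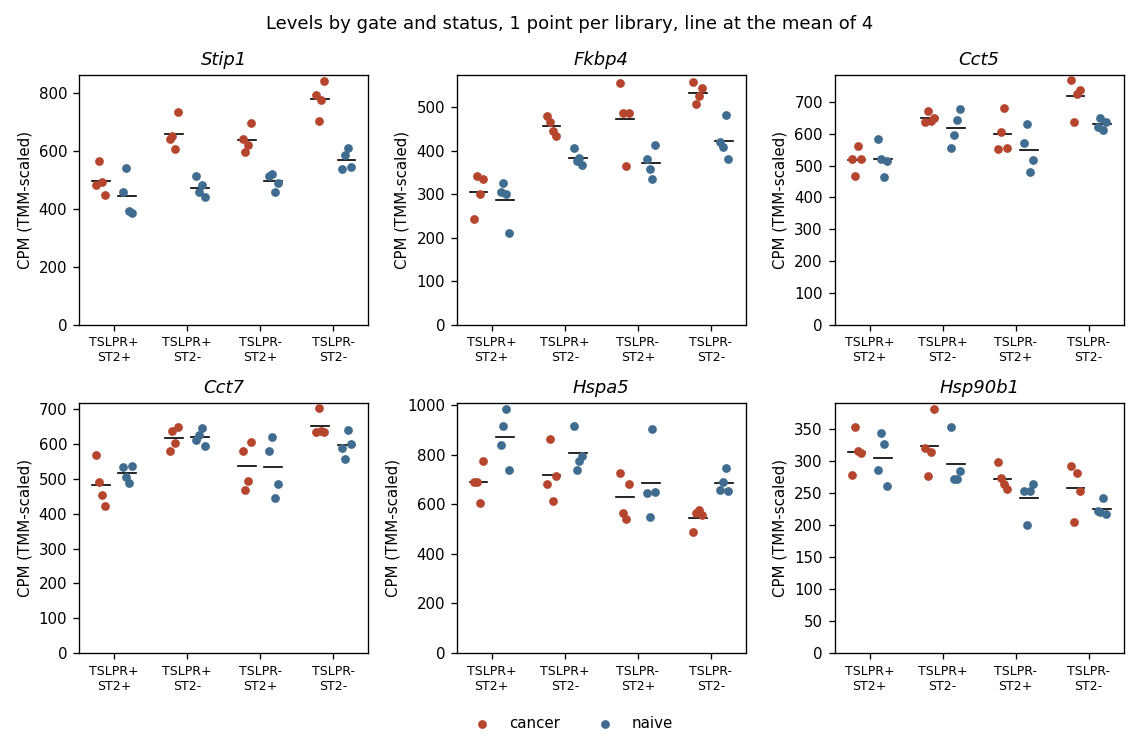
Level of Stip1, Fkbp4, Cct5, Cct7, Hspa5 and Hsp90b1 in each library as CPM, by gate (TSLPR+ST2+ left to TSLPR-ST2- right) and by status (cancer left, naive right in each gate), with a line at the mean of 4 libraries. Stip1 and Fkbp4 have their lowest group means in TSLPR+ST2+ and their highest in TSLPR-ST2-, and Cct5 and Cct7 are lower in the ST2+ gates.

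Markers of other cells differed between the gates as well. Macrophage and dendritic markers summed to 312 to 2621 CPM in ST2+ libraries, against 2.51 to 1159 CPM in ST2- libraries, and to 138 to 2178 CPM in TSLPR+ libraries, against 2.51 to 2621 CPM in TSLPR- libraries. Of the 8 markers, 7 were higher in ST2+ and 7 in TSLPR+ libraries, with none of them at 0 throughout. B and plasma cell markers, which include cells rich in ER chaperones, summed to 41.9 to 821.7 CPM (median 172.8) in TSLPR+ libraries, against 31.5 to 126.6 CPM (median 53.1) in TSLPR- libraries, and 5 of the 7 rose there. Their part in the chaperone differences was not tested.

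By gate and status, the summed co-chaperones ran from 2341 ± 89.5 CPM in the cancer libraries of TSLPR+ST2+ to 3110 ± 94.0 CPM in those of TSLPR-ST2-, against 2102 ± 190.5 and 2545 ± 75.0 CPM in the naive libraries of the same gates (SD, n = 4 each). TSLPR+ST2- and TSLPR-ST2+ stood between them, at 2764 ± 50.1 and 2843 ± 225 CPM in cancer libraries and 2324 ± 109 and 2393 ± 87.9 CPM in naive libraries, and these 2 gates overlap each other in both statuses. The summed CCT subunits were 4219 ± 219 CPM in the cancer libraries of TSLPR-ST2-, against 3716 ± 129 CPM in the naive libraries, but 3239 ± 208 against 3212 ± 209 CPM in TSLPR+ST2+. They were 4053 ± 244 against 3950 ± 137 CPM in TSLPR+ST2-, and 3702 ± 52.9 against 3575 ± 402 CPM in TSLPR-ST2+. Cancer and naive libraries overlapped in each gate but TSLPR-ST2-, and the highest naive mean was in TSLPR+ST2-. These sums are descriptions, and no test was made of them.

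Few chaperone genes outside the 37 passed between cancer and naive mice. In the per-mouse comparison, 0 of 18 other HSP90 co-chaperones passed (Fkbp8, log2 -0.25, adjusted p = 0.0563, and Nudc, log2 0.29, adjusted p = 0.0861, had the smallest p), 0 of 22 other HSP70, J-domain and exchange genes (Hspbp1, log2 0.21, and Hspa2, log2 -0.77, adjusted p = 0.335 and 0.438) and 0 of the 9 tested of 12 other heat shock genes (Hikeshi, log2 0.21, and Hsbp1, log2 0.18, adjusted p = 0.349 and 0.361). Of 10 prefoldin and CCT partner genes 0 passed, with 9 positive estimates and a median log2 of 0.19, led by Pfdn2 (log2 0.40, adjusted p = 0.0837) and Pfdn6 (log2 0.32, adjusted p = 0.0847). Of 10 mitochondrial quality control genes 0 passed (Trap1, log2 -0.19, and Timm44, log2 -0.25, adjusted p = 0.241 and 0.343). At an unadjusted p under 0.05 were 4 of the other co-chaperones, 0 of the HSP70 list, 0 of the heat shock list, 3 of the prefoldin list and 1 of the mitochondrial list, and DESeq2 called 3, 0, 0, 3 and 0 of them in that order. Only 1 of those 4 co-chaperones was higher in cancer mice, while the 3 prefoldin genes all were. Fkbp8, Ppp5c and Trap1 had every cancer mouse below every naive mouse, and Nudc every cancer mouse above. The DESeq2 calls among the other co-chaperones were Fkbp8, Nudc and Ppp5c. Of 19 ER stress genes 1 fell, the sensor Atf6 (14.5 ± 2.62 CPM in cancer mice and 28.6 ± 3.25 CPM in naive mice, SD, n = 4 each, log2 -0.98, adjusted p = 0.0342), and Calr was next (log2 -0.24, adjusted p = 0.0563).

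Of 17 tested immediate early genes, which digestion of a tissue can raise together with heat shock genes, 2 fell in cancer mice and 0 rose, and DESeq2 called 9. Junb averaged 394.7 ± 36.0 CPM in cancer mice and 750.9 ± 17.5 CPM in naive mice (log2 -0.93, adjusted p = 0.00190), and Zfp36 160.1 ± 8.26 and 247.3 ± 13.7 CPM (SD, n = 4 each, log2 -0.63, adjusted p = 0.00512). The list had 16 negative estimates and a median log2 of -0.43, against 0.01 over all genes. Its summed level was 2383 to 2817 CPM in cancer mice, against 3360 to 3900 CPM in naive mice. The co-chaperones that were higher in cancer mice stood beside immediate early genes that were lower there, and a link between them was not tested.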

How the data were processed

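Reads of 33 libraries (SMART-Seq v4 and Nextera XT, 58-base single reads) were processed by the submitters, whose processing notes name HTSeq 0.4.1, Picard 1.134, FastQC 0.11.3, SAMtools 1.2 and GRCm38. The deposited table holds raw counts per Ensembl gene. Aligner, annotation release and use of strand: not given in the sources used here. Positions of genes and exons come from GENCODE M21 (GRCm38), and 53274 of 53465 gene IDs matched a symbol.

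From the deposited counts, edgeR 4.0.16 (R 4.3.3) fitted a quasi-likelihood model with TMM scaling, a low-count filter (minimum count 10, total 15), a robust fit and Benjamini-Hochberg adjustment at 0.05. A model of the 32 Treg libraries by group tested 14861 genes, and sums of the 4 gates of each mouse tested 15338, with all 37 members in both. Adjusted p values without a named tool are from edgeR over all genes tested. SE is the size of the log2 difference divided by the root of F. DESeq2 1.42.0, limma 3.58.1 and other settings were alternatives. The fits were tested on simulated data.

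The mouse is the replicate in the per-mouse sums. The model of 32 libraries, which gave the gate comparisons, has no mouse term and takes libraries as replicates. Its ST2 and TSLPR tests are not paired by mouse. Libraries of a mouse share the animal, which pairs the gates; the mean correlation of their deviations from group means was 0.00993 over 48 pairs, 3 of them above 0.1, and -0.00331 over 144 pairs of other mice. The labels do not say whether cancer and naive mice were sorted or sequenced together. No pair of libraries was alike enough to be 1 library deposited again (highest correlation 0.980). The members and lists were chosen with earlier results of these data known. Genes outside the members are named where they passed per mouse or had 1 of the 2 smallest p values of their list; those named in the TSLPR comparison were chosen after their values were seen.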

Additional observations from a re-analysis of the deposited data

Results flagged for a closer look

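In 6 of 90 sets of 4 mice, 1 mouse stood apart from the other 3 by Dixon's test at the 95% level, which chance gives in about 1 of 20 sets. Naive mouse 3 was low for Hsp90aa1 (407 CPM, others 511 to 529 CPM) and Cct4 (359 CPM, others 411 to 417 CPM) and high for Hspa4 (242 CPM, others 196 to 202 CPM). Cancer mouse 6 was low for Hspa4 (168 CPM, others 197 to 200 CPM) and high for Ahsa1 (374 CPM, others 359.5 to 361 CPM), and cancer mouse 8 was low for Hspd1 (220.3 CPM, others 254 to 259 CPM).

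The library of Foxp3-CD44low T cells, which entered no comparison, was above all 16 naive Treg libraries for 8 of the 37 genes in CPM of plain totals, within their range for 28 and below it for 1. Of the 14861 genes tested in the Treg libraries, 9.23% were above that range, 82.3% within it and 8.51% below it. Stip1 was at 606 CPM there (383 to 582 CPM in the naive Treg libraries), Fkbp4 at 486 (211 to 459), Ahsa1 at 367 (220 to 353), Dnajb1 at 626 (333 to 534), Dnaja1 at 523 (299 to 481), Dnaja2 at 391 (289 to 376), Hspa8 at 1781 (1160 to 1641) and Hspd1 at 262 CPM (134 to 232 CPM). It is 1 library with no replicate.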

How the results depend on the processing

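Of 38 calls of the 37 genes over the 9 comparisons, 0 changed sign under any alternative run and 13 were kept whichever mouse was left out: 8 in TSLPR, 4 in ST2, 1 in TSLPR+ST2+ (Dnajb1) and 0 per mouse. Counts below give the 37 first, then all genes.

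Per mouse (7 and 186), leaving out 1 mouse gave 0 to 4 and 28 to 98, no low-count filter 3 and 138, DESeq2 10 and 1148, the mitochondrial share as covariate 0 and 0, and the mean of the 4 gate contrasts 14 and 1187. That last count comes from the model of 32 libraries, which has no mouse term and takes libraries, not mice, as replicates. In TSLPR-ST2- (2 and 31), leaving out 1 mouse gave 0 to 1 and 11 to 24, DESeq2 2 and 128, and no filter, the mitochondrial share or the 8 libraries of the gate alone 0 of the 37. In TSLPR-ST2+ (0 and 30), leaving out 1 mouse gave 0 to 1 and 4 to 37, DESeq2 2 and 204, the mitochondrial share 0 and 50, the gate alone 0 and 2, and a replicate block (limma-voom, mouse as random effect) 1 and 67. In TSLPR+ST2- (1 and 7), leaving out 1 mouse gave 0 to 1 and 0 to 18, DESeq2 2 and 87, no filter 0 and 0, thinning, the mitochondrial share or the gate alone 0 of the 37 (2 genes for the gate alone), and the replicate block 1 and 11. In TSLPR+ST2+ (5 and 618), leaving out 1 mouse gave 1 to 5 and 171 to 749, DESeq2 8 and 1196, no filter 3 and 358, the mitochondrial share 0 and 4, the gate alone 0 and 17, and the replicate block 3 and 487, without Hspa4 and Chordc1.

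For ST2 (11 and 897), leaving out 1 mouse gave 6 to 12 and 459 to 783, and for TSLPR (12 and 1996) 9 to 12 and 1303 to 1939. With the mouse as a replicate block, 11 and 740 passed for ST2 and 12 and 1860 for TSLPR. The tests of dependence on the gate called 0 genes with edgeR, 46 (ST2) and 48 (TSLPR) with DESeq2, and 0 to 1 for TSLPR without 1 mouse. Causes were not tested. With 4 mice a group, per-mouse calls near the limit rest on single animals. Hspa1a and Hspa1b had a median of 3.50 and 55.5 counts per library, with a median coefficient of variation within groups of 118% and 50.6%.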
